A study of Mus musculus with 6 samples.

Results

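The genes described here are 10 that move calcium across the membranes of the endoplasmic reticulum (ER) and Golgi or refill the ER store from outside the cell. They are the ER pumps Atp2a2 and Atp2a3, the Golgi pump Atp2c1, the release channels Itpr1, Itpr2, Itpr3 and Ryr2, the ER calcium sensors Stim1 and Stim2, and the plasma membrane channel Orai1. They were taken by gene symbol from a table of 55487 genes, and all 10 had enough counts to be among the 21141 genes tested.

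RNA was sequenced from MIN6, an insulin-secreting mouse line that stands in for beta cells of the pancreas. One group of 3 libraries came from cells transiently transfected with full-length PTHrP, the parathyroid hormone-related protein encoded by Pthlh. The other 3 came from cells transfected with the DsRed vector, which encodes a red fluorescent protein and serves as the control. Both groups received Lipofectamine, RNA was taken at most 3 days later, and no untransfected library was analysed here. A transient transfection reaches only some of the cells of a culture, and each library averages over cells with and without the construct. In such bulk libraries fewer cells carrying a transcript and less transcript per cell cannot be told apart. The title of the series names ER stress as the question.

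The ER holds far more free calcium than the cytosol. Pumps of the SERCA family load it, and receptors for inositol trisphosphate (IP3) and ryanodine receptors let it out when a cell is stimulated. When the store empties, STIM proteins in the ER membrane sense the fall and open ORAI channels in the plasma membrane, which is called store-operated calcium entry. In beta cells these steps shape the calcium oscillations that accompany insulin secretion. The folding of proinsulin by calcium-binding chaperones also depends on a filled store, and blocking the SERCA pumps is a standard way to cause ER stress.

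The libraries held 84427033 to 94613684 gene counts. In PTHrP libraries Pthlh had 697, 553 and 797 counts, against 0, 4 and 8 in DsRed libraries, so the labels match the construct. All 8 beta cell markers examined were above 1 CPM (counts scaled to 1000000 per library) and summed to between 50974 and 57756 CPM in PTHrP libraries and between 52151 and 64084 CPM in DsRed libraries. Markers of fibroblasts, leukocytes, endothelium, acinar, duct, delta and PP cells and muscle summed to at most 5.07 CPM per list in any library. The alpha cell gene Gcg was present at 159 ± 21.2 CPM in PTHrP cells and 148 ± 4.47 CPM in DsRed cells (SD, n = 3 each). PTHrP replicate 2 stood apart from the other libraries, with a chi-square per gene of 55.5 to 68.6 in every pair that held it and of 9.08 to 36.9 in all other pairs. It was also the library furthest from the other 2 of its group for 6 of the 10 calcium genes.

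None of the 10 calcium genes differed between PTHrP and DsRed cells past the threshold, an adjusted p of 0.05 over all genes tested (edgeR quasi-likelihood test). Of all genes tested 0.0426% passed, so a count of 0 in 10 is near the background. No calcium gene had an unadjusted p under 0.05 either, against 8.9% of all genes, and DESeq2 and limma-voom also called none. That second count was not stable, since 1 or 2 of Stim1, Stim2 and Orai1 had an unadjusted p under 0.05 in 7 of the 16 alternative fits. Among these were the fits that left out PTHrP replicate 1 (Stim2, unadjusted p = 0.0105 by the edgeR test), PTHrP replicate 2 (Stim1 with 0.0103 and Orai1 with 0.0455) or DsRed replicate 1 (Orai1 with 0.0256). Fits of all libraries were among them too, with the smallest p, 0.00816 for Stim1, under a correction for exon length (edgeR test). The share of all genes under 0.05 in those alternative fits is not given here, so this count has no background beside it. Fold changes were negative for 5 of the 10 (and for 51.3% of all genes) and positive for the other 5, with a median of -0.02 on the log2 scale, against -0.01 over all genes tested. Only Stim1 of the 10 had all PTHrP libraries on one side of all DsRed libraries, which held for 16.3% of all genes. What the data do give is a level for each gene and an interval for the fold between the groups, averaged over cells with and without the construct and based on the spread between these libraries.

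The levels spanned more than 4 powers of 10 when counted per kilobase of annotated exon, the scale on which genes of different length can be compared. Over the 6 libraries the median was 1094 CPM per kilobase for Atp2a2 and 434 for Atp2a3. It was 19.5 for Atp2c1, 15.6 for Stim2, 5.51 for Stim1, 4.88 for Itpr1 and 2.61 for Orai1. Far below these came Itpr3 at 0.781, Itpr2 at 0.0548 and Ryr2 at 0.0287. Neighbours in this order had ranges that did not overlap, except Stim1 with Itpr1 and Itpr2 with Ryr2. Within each of the 6 libraries the order was nevertheless the same for every neighbouring pair. With the longest annotated transcript as the length, Stim2 and Stim1 also overlapped, with medians of 16.2 and 13.1 CPM per kilobase, and Stim2 was the higher in 5 of 6 libraries.

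**Figure D1:**
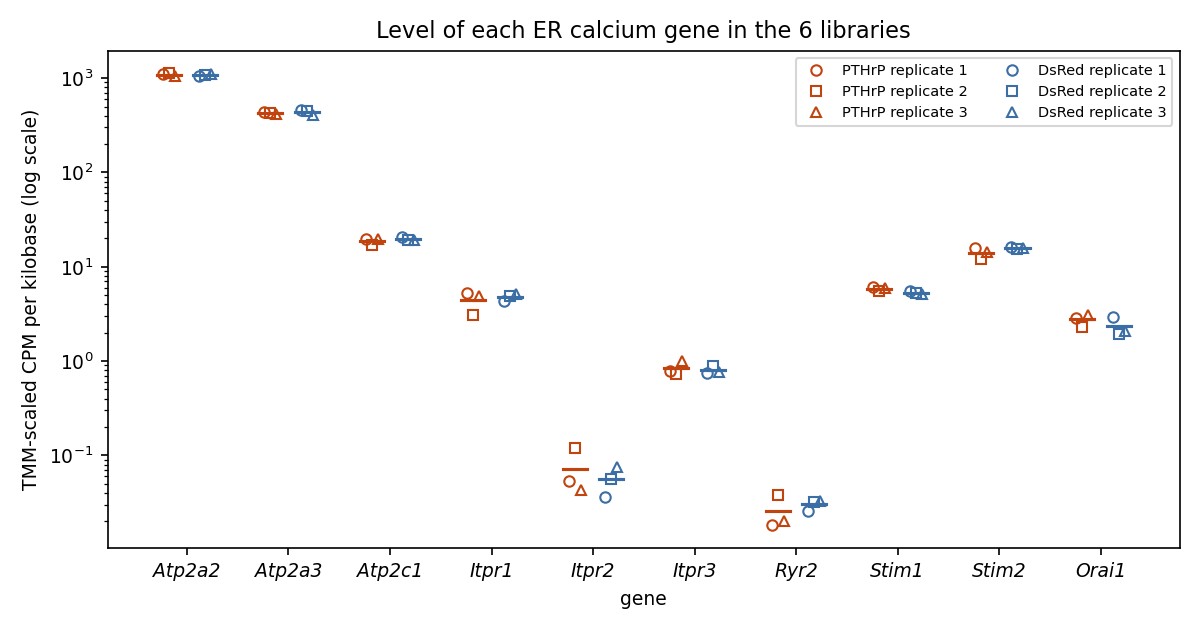
Level of each of the 10 genes in TMM-scaled CPM per kilobase of annotated exon (log axis), with 1 point per library, PTHrP left of DsRed, and a bar at each group mean. The pumps Atp2a2 and Atp2a3 stand above all others, Itpr2 and Ryr2 lie lowest, and PTHrP replicate 2 (squares) lies low for Itpr1 and Stim2 and high for Itpr2 and Ryr2.

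Atp2a2 encodes SERCA2, the ER pump found in nearly all cells. It lies on chromosome 5 at 122453513 to 122502225 of the mouse build GRCm38. It had 6687, 6839 and 6335 CPM in the PTHrP libraries, against 6351, 6613 and 6716 CPM in the DsRed libraries. The 2 groups cover nearly the same range, with the lowest value of all in PTHrP replicate 3. Between 0.633% and 0.689% of a library's counts were Atp2a2, and 99.94% of the genes tested had a level per kilobase no higher than it. Its log2 fold change was 0.01 (SE 0.05, adjusted p = 0.958), with a 95% interval for the fold of 0.936 to 1.09. The sign changed to -0.01 without PTHrP replicate 2 or without DsRed replicate 1.

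Atp2a3 encodes SERCA3, a pump with a lower affinity for calcium that is found in beta cells and blood cells. It lies on chromosome 11 at 72961169 to 72993044. The PTHrP libraries had 2340, 2243 and 2198 CPM, against 2456, 2384 and 2156 CPM in the DsRed libraries. DsRed replicate 3 was the lowest and DsRed replicate 1 the highest, so the PTHrP values fell inside the DsRed range. Its fold change was -0.05 on the log2 scale, with an SE of 0.06 (adjusted p = 0.873), and the interval for the fold was 0.887 to 1.06. Per length, Atp2a2 made up 71.8% ± 0.709 of the transcripts of these 2 pumps in PTHrP and 71.0% ± 1.93 in DsRed (SD, n = 3 each). A further gene of the family, Atp2a1, the pump of fast skeletal muscle, had 18, 20 and 35 counts in PTHrP and 8, 25 and 37 counts in DsRed, so it contributed next to nothing.

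Atp2c1 encodes SPCA1, which loads calcium and manganese into the Golgi. It lies on chromosome 9 at 105403539 to 105527319 and had 190, 165 and 191 CPM in the PTHrP libraries, against 201, 187 and 185 CPM in the DsRed libraries. PTHrP replicate 2 was the lowest and the groups overlapped. Its log2 fold change of -0.07 (SE 0.07, adjusted p = 0.820) had an interval for the fold of 0.859 to 1.06 and ran from -0.11 without PTHrP replicate 3 to -0.0019 without PTHrP replicate 2. Its exons overlap those of Aste1 on the opposite strand over 1837 bases, and without a stated strand setting reads there cannot be assigned. Aste1 had 13.5 CPM in PTHrP cells and 13.0 CPM in DsRed cells, far under Atp2c1. Its relative Atp2c2, the second Golgi pump, was at 0.112 ± 0.0164 CPM in PTHrP cells and 0.204 ± 0.0613 CPM in DsRed cells (adjusted p = 0.757).

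Among the release channels Itpr1, the type 1 IP3 receptor, was the main transcript, and it is on chromosome 6 at 108213096 to 108551109. It had 97.0, 57.1 and 88.9 CPM in the PTHrP libraries, against 80.3, 89.7 and 93.9 CPM in the DsRed libraries. The value of PTHrP replicate 2 lay below all 5 others, while PTHrP replicate 1 was the highest of all. Because of that spread, 26.1% of the mean within PTHrP and 7.96% within DsRed, the interval for the fold ran from 0.665 to 1.28. The log2 fold change was -0.12 (SE 0.19, adjusted p = 0.907), and it changed to 0.08 once PTHrP replicate 2 was left out, against -0.27 with PTHrP replicate 1 left out.

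Itpr3, the type 3 receptor, lies on chromosome 17 at 27057304 to 27122223. It had 7.12, 6.58 and 9.09 CPM in the PTHrP libraries, against 6.72, 7.91 and 6.97 CPM in the DsRed libraries. The PTHrP libraries held both the lowest and the highest value. Its log2 fold change came to 0.08 (SE 0.14, adjusted p = 0.916), with an interval for the fold of 0.847 to 1.31, and leaving out a library gave values between -0.07 (PTHrP replicate 3) and 0.17 (PTHrP replicate 2).

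Itpr2, the type 2 receptor, is on chromosome 6 at 146108299 to 146502223 and was scarcely sequenced. PTHrP libraries gave it 68, 149 and 61 counts, against 46, 73 and 102 counts in DsRed libraries. PTHrP replicate 2 had the most, and the others of its group lay inside the DsRed range. Fitted over all libraries, the log2 fold change was 0.36 (SE 0.41, adjusted p = 0.852), and single libraries left out gave -0.21 (PTHrP replicate 2) to 0.63 (DsRed replicate 3). The interval for the fold, 0.686 to 2.39, holds both no change and a 2-fold rise.

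Per length, Itpr1 made up 82.4% ± 3.83 of the 3 IP3 receptor transcripts in PTHrP and 84.9% ± 0.910 in DsRed (SD, n = 3 each). Itpr3 made up 16.1% ± 2.89 in PTHrP and 14.1% ± 1.09 in DsRed, and Itpr2 the small rest. PTHrP replicate 2 had the lowest share of Itpr1, 78.6%, and the highest of Itpr2, 2.99%, against at most 1.26% in any other library.

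Ryr2, the main ryanodine receptor of the heart, lies on chromosome 13 at 11553102 to 12106945 and was the lowest of the 10 genes. PTHrP libraries gave it 45, 94 and 55 counts, against 64, 80 and 87 counts in DsRed libraries. PTHrP replicate 2 was again the highest of all, and the other PTHrP libraries were the lowest. Over all libraries the log2 fold change was -0.24 (SE 0.34, adjusted p = 0.888), with an interval for the fold of 0.502 to 1.42. With PTHrP replicate 2 left out it came to -0.65, while omitting PTHrP replicate 1 gave -0.05 and omitting PTHrP replicate 3 gave -0.10. The level per kilobase lay among the lowest, at percentile 2.43. Among the 4 release channels of the 10 genes Ryr2 took 0.531% ± 0.372 of the transcripts per length in PTHrP and 0.529% ± 0.0290 in DsRed (SD, n = 3 each).

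The other ryanodine receptors did not make up for it. Ryr1, the receptor of skeletal muscle, had 19, 34 and 70 counts in PTHrP and 74, 91 and 143 counts in DsRed, groups that did not overlap (8.45% of all genes tested were higher and 7.88% lower in PTHrP without overlap). Its log2 fold change was -1.34 (SE 0.42, adjusted p = 0.378) and did not pass. Ryr3 had 42, 125 and 62 counts in PTHrP and 97, 52 and 114 counts in DsRed (log2 fold change -0.19, adjusted p = 0.930). On the per-kilobase scale the means of all 3 receptors lay under 0.06 CPM in both groups, with 0.0207 for Ryr1, 0.0255 for Ryr2 and 0.0458 for Ryr3 in PTHrP and 0.0528, 0.0302 and 0.0520 for the same genes in DsRed.

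**Figure D2:**
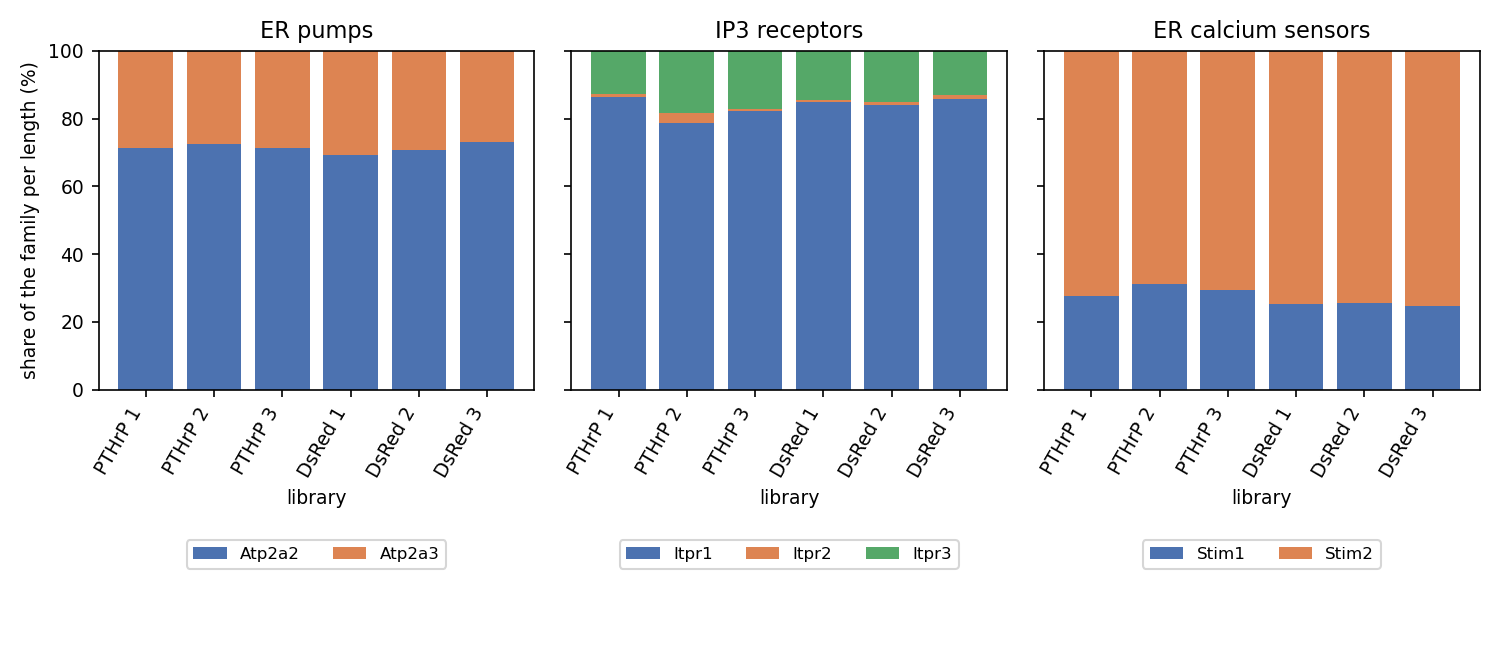
Share of each gene in its family, in percent of summed CPM per kilobase, for the ER pumps, the IP3 receptors and the ER calcium sensors, with 1 bar per library and PTHrP libraries on the left. Atp2a2 and Itpr1 lead in all 6 libraries, and the Stim1 share is 27.6% to 31.3% in PTHrP libraries and 24.7% to 25.5% in DsRed libraries.

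The store-operated entry genes came closest to a difference, with the sensors on opposite sides of 0. Stim1, the sensor that opens ORAI channels when the store is emptied, lies on chromosome 7 at 102267806 to 102437319. It had 62.9, 57.2 and 61.4 CPM in the PTHrP libraries, against 57.0, 54.9 and 53.3 CPM in the DsRed libraries. All 3 PTHrP values were above all 3 DsRed values, though PTHrP replicate 2 and DsRed replicate 1 differed by little. The log2 fold change was 0.14 (SE 0.07, unadjusted p = 0.0680, adjusted p = 0.595; edgeR quasi-likelihood test), with an interval for the fold of 0.992 to 1.22. It stayed positive in all 16 alternative fits, between 0.11 and 0.19, and passed in none.

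Stim2, a sensor that responds to smaller losses of ER calcium, lies on chromosome 5 at 53998499 to 54121057. It had 81.5, 62.1 and 73.3 CPM in the PTHrP libraries, against 82.9, 79.5 and 80.6 CPM in the DsRed libraries. PTHrP replicates 2 and 3 were below the DsRed range, and PTHrP replicate 1 was inside it. Its difference was -0.16 in log2 units (SE 0.09, adjusted p = 0.629), with an interval for the fold of 0.780 to 1.02. Omitting PTHrP replicate 1 gave -0.26, and omitting PTHrP replicate 2 gave -0.06.

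Set against each other, Stim2 was 2.41 ± 0.211 times Stim1 per kilobase of annotated exon in PTHrP and 2.97 ± 0.0713 times in DsRed (SD, n = 3 each). The ratio was 2.62, 2.20 and 2.41 in the PTHrP libraries, against 2.94, 2.92 and 3.05 in the DsRed libraries. The groups did not overlap in this ratio. The exact two-sided permutation p was 0.1, with an adjusted p of 0.6 over the 6 ratios computed between pairs of these genes. That p is the smallest that 3 libraries against 3 allow, so this test could not pass the threshold whatever the values and decides nothing. How often ratios of other genes do not overlap was not computed, and Stim1 alone already did not overlap. In the other 5 ratios the groups overlapped, for example Atp2a2 over Atp2a3 at 2.54 ± 0.0902 in PTHrP and 2.45 ± 0.233 in DsRed (SD, n = 3 each). The size of the Stim2 to Stim1 ratio depends on the length used. With the longest transcript Stim2 made up 51.2% ± 2.20 of the sensors in PTHrP and 56.5% ± 0.585 in DsRed (SD, n = 3 each). On that scale Stim1 was the higher in PTHrP replicate 2, at 51.0% against 49.0%.

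Orai1, the pore of the store-operated channel, is on chromosome 5 at 123015074 to 123030456. It had 6.64, 5.33 and 7.08 CPM in the PTHrP libraries, against 6.71, 4.50 and 4.83 CPM in the DsRed libraries. DsRed replicate 1 lay among the PTHrP values and away from the rest of its own group. The log2 fold change was 0.25 (SE 0.18, adjusted p = 0.728), with an interval for the fold of 0.910 to 1.55, and it was 0.44 without DsRed replicate 1 and 0.14 without DsRed replicate 2.

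Orai1 was not the most abundant channel of its family per kilobase of annotated exon. Per kilobase Orai3 had 9.14 ± 0.0191 CPM in PTHrP cells and 7.89 ± 0.491 CPM in DsRed cells, and Orai2 had 4.85 ± 0.566 CPM in PTHrP cells and 4.43 ± 0.163 CPM in DsRed cells. On the same scale Orai1 had 2.77 ± 0.398 CPM in PTHrP cells and 2.33 ± 0.520 CPM in DsRed cells (SD, n = 3 each). Orai3 thus took 52.3% to 58.3% of the 3 channel transcripts in the 6 libraries. These shares rest on all annotated exons as the length, and the longest transcript was not tried for this family. Orai3 had 19.5, 19.6 and 19.6 CPM in PTHrP, against 17.5, 17.5 and 15.7 CPM in DsRed. The groups did not overlap, which held with PTHrP higher for 8.45% of all genes tested. The log2 fold change of Orai3, 0.21, did not pass (SE 0.09, adjusted p = 0.504). All 3 channel genes had positive fold changes, the one for Orai2 being 0.13 (adjusted p = 0.732).

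**Figure D3:**
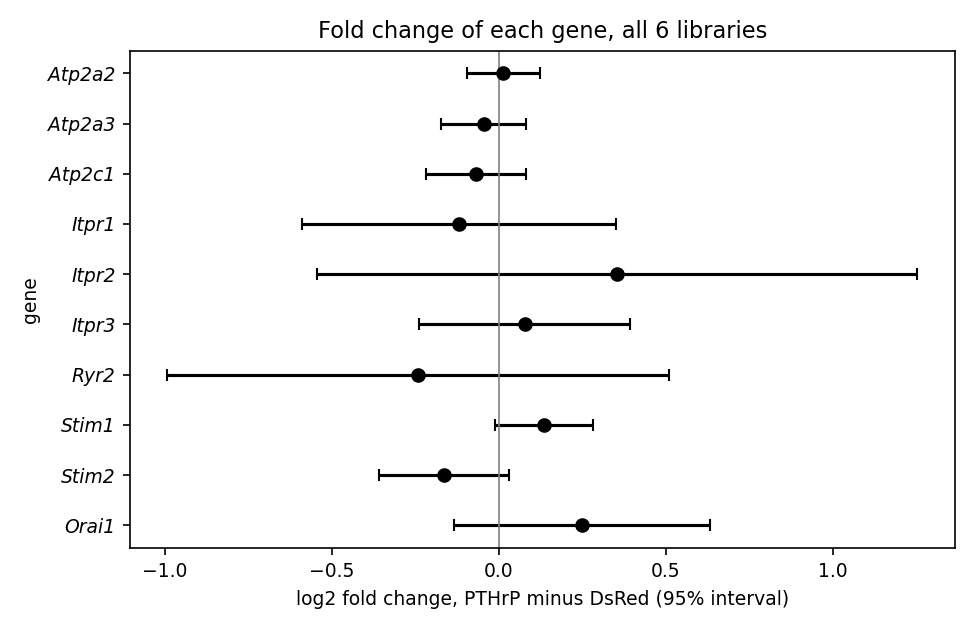
Log2 fold change of each gene, PTHrP minus DsRed, with its 95% interval from the fit over all 6 libraries. Every interval includes 0, those of Atp2a2 and Atp2a3 are the narrowest, and those of Itpr2 and Ryr2 the widest.

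The width of the intervals went only partly with the counts behind each gene. The ER pumps, with 190718 to 614513 counts in a library, had standard errors of 0.05 and 0.06 on the log2 scale, while Itpr2 and Ryr2, with 45 to 149 counts, had 0.41 and 0.34. Itpr1, at 4855 to 8595 counts, had an SE of 0.19, wider than that of Stim1 at 4809 to 5846 counts (0.07) and also than those of Itpr3 at 559 to 865 counts (0.14) and Orai1 at 394 to 674 counts (0.18). PTHrP replicate 2 lay away from its group for Itpr1. Itpr2 varied by 56.9% of the mean within PTHrP and 35.2% within DsRed, where counting alone would give 10.4% in PTHrP and 11.7% in DsRed. Whether whatever set PTHrP replicate 2 apart also moved these genes was not tested.

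**Figure D4:**
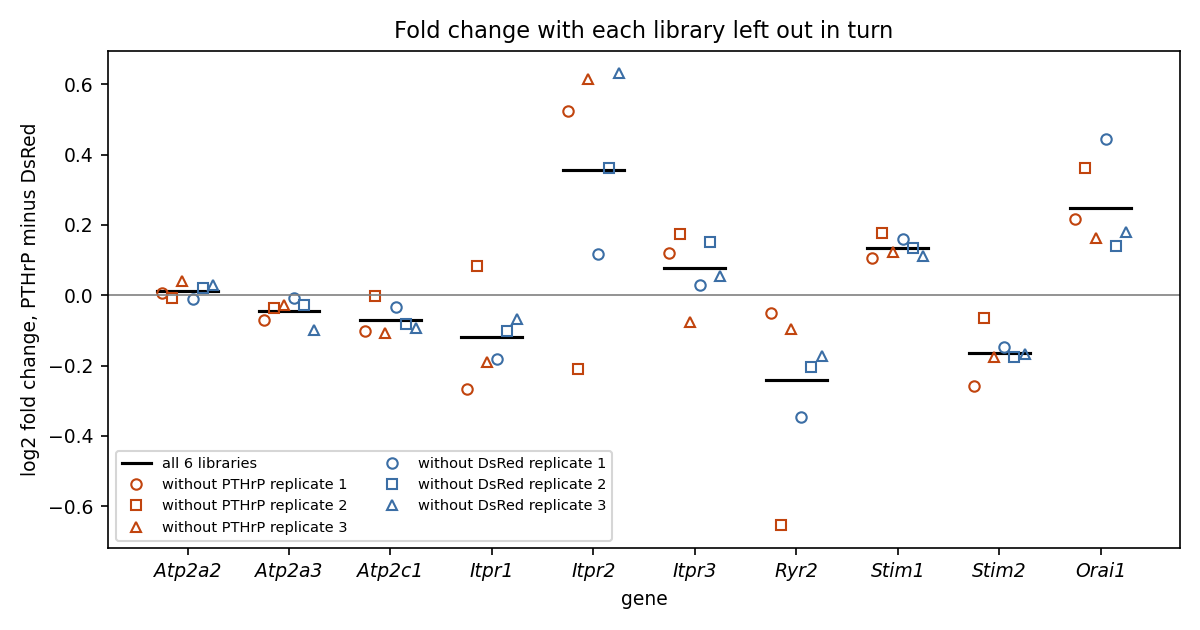
Log2 fold change of each gene, PTHrP minus DsRed, with all 6 libraries (bar) and with each library left out in turn (points). Leaving out PTHrP replicate 2 (red squares) moves Itpr2, Ryr2 and Itpr1 most, while the values of Stim1 stay between 0.11 and 0.18.

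Proteins that work with these pumps and channels were taken from lists of 98 genes in all. Over all genes tested 51.3% had a negative fold change, and no list was tested as a set. Of the 6 tested relatives and regulators of the pumps, none passed and 4 had negative fold changes. Tmem64, which acts on SERCA2, stood at -0.12 on the log2 scale (adjusted p = 0.602). Vmp1, an ER membrane protein that regulates SERCA activity, was at -0.12 too (adjusted p = 0.651). The muscle SERCA inhibitors Pln and Sln and the SERCA activator Strit1 had too few counts to be tested.

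Of the 24 tested genes of IP3 production and IP3 receptor partners, none passed and 15 had negative fold changes, with a median of -0.10. The smallest p belonged to Erp44, a folding protein of the ER lumen that binds and inhibits the type 1 IP3 receptor. It had 73.2, 77.3 and 72.8 CPM in the PTHrP libraries, against 103, 93.8 and 98.0 CPM in the DsRed libraries. All PTHrP values lay far below all DsRed values, and the log2 fold change was -0.40 (SE 0.06, adjusted p = 0.0667). Groups without overlap, with PTHrP lower, were found for 7.88% of all genes tested. Erp44 passed without PTHrP replicate 2 (-0.43, adjusted p = 0.00140), with DESeq2 (0.000105), without the filter on low counts and with the length correction, and its adjusted p reached 0.386 in the other alternatives. Plcb2, a phospholipase that makes IP3, had -1.07 at under 1 CPM (adjusted p = 0.528), and Ahcyl2, of the family of IP3 receptor-binding proteins, had -0.13 (adjusted p = 0.535).

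None of the 16 tested relatives and partners of the ryanodine receptor passed, and 13 had negative fold changes, against 51.3% of all genes tested. Among the 13, Ryr3, Jph2, Trdn and Casq2 had means under 1 CPM in both groups. Beside Ryr1, the genes with the smallest p were Casq1, the calcium-binding protein of the muscle store, and Sri, which binds ryanodine receptors. Casq1 was under 1 CPM in every library, and its difference was 1.32 on the log2 scale (adjusted p = 0.608). Sri had 50.6 ± 1.3 CPM in PTHrP cells and 54.8 ± 1.73 CPM in DsRed cells, and its difference was -0.12 (adjusted p = 0.639).

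The 12 partners of store-operated entry were split, 7 with positive and 5 with negative fold changes, and none passed. Selenok, a selenoprotein of the ER membrane needed for store-operated entry in immune cells, had 75.2 ± 5.45 CPM in PTHrP cells and 87.8 ± 0.0723 CPM in DsRed cells. Its difference was -0.22 in log2 units (SE 0.07, adjusted p = 0.370). Trpc1, a cation channel linked to store-operated entry, had 71.6 ± 4.19 CPM in PTHrP cells and 85.8 ± 7.86 CPM in DsRed cells, a difference of -0.26 (SE 0.08, adjusted p = 0.370). In both genes the groups did not overlap, which held with PTHrP lower for 7.88% of all genes tested.

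Inside the ER lumen the picture differed for one gene. Of 16 genes of calcium leak and calcium binding, 12 had negative fold changes, with a median of -0.11, and 1 passed, Hspa5, which was lower in PTHrP. Hspa5 encodes BiP, a chaperone that also binds much of the calcium of the ER. It had 1672, 1584 and 1685 CPM in the PTHrP libraries, against 2616, 2430 and 2209 CPM in the DsRed libraries, so that it fell by 0.55 (log2 scale) with an SE of 0.06 and an adjusted p = 0.0121. That value was already known when the lists were drawn up, and Hspa5 missed the threshold when either of 2 control libraries was left out: DsRed replicate 1 (-0.50, adjusted p = 0.0559) or DsRed replicate 2 (-0.55, with 0.119). Its adjusted p lay between 4.31e-18 and 0.119 over the 16 alternatives. Hsp90b1, the calcium-binding chaperone GRP94, had -0.25 (adjusted p = 0.228), and Nucb2, a calcium-binding protein of the secretory pathway, had -0.33 (adjusted p = 0.252). Both passed, lower in PTHrP, without PTHrP replicate 2 (adjusted p = 0.00735 for Hsp90b1 and 0.0453 for Nucb2), with DESeq2 and without the filter on low counts, and their adjusted p reached 0.949 in the other alternatives.

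**Figure D5:**
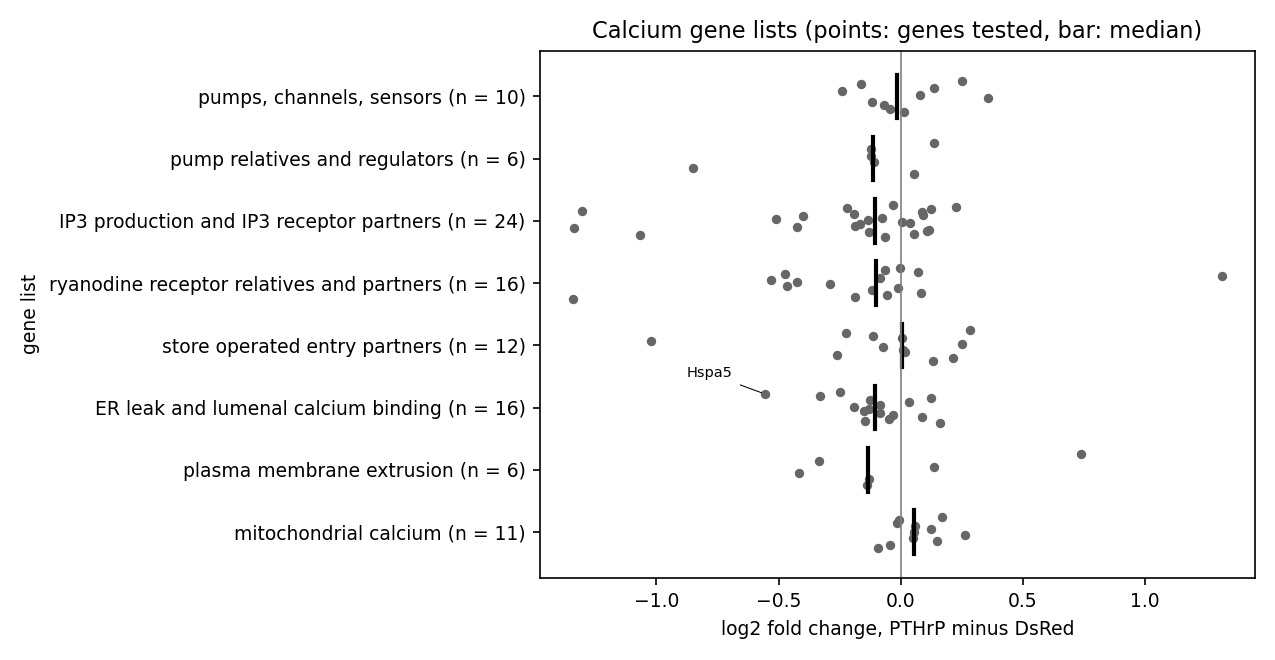
Log2 fold change, PTHrP minus DsRed, of every tested gene of the 8 calcium gene lists (points), with the median of each list (bar). Hspa5 in the ER lumen list is the 1 gene past the threshold, and the points far from 0 in the IP3 and ryanodine receptor lists are genes at about 1 CPM or less.

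The promoters of these genes were read beside the values because Hspa5 is a classical target of the ER stress element (ERSE), a CCAAT box and a CCACG box with 9 bases between them, through which ATF6 and XBP1 act. RefSeq promoter windows (GRCm38.p6, 250 bases before to 50 after a start) were at hand for 8 of the 10 calcium genes (all but Atp2a2 and Itpr1), in 9 windows, and for Hspa5, Hsp90b1 and Calr, the ER calcium-binding protein calreticulin. The search covered both strands and took exact letters only, so near matches were not counted. None of the 9 windows held an ERSE, nor the related ERSE-II, ATTGG and CCACG with 1 base between them, nor the 8-letter core of the unfolded protein response element, TGACGTGG. Over all 32851 mouse windows 0.119% held an ERSE, 0.0365% an ERSE-II and 0.676% the TGACGTGG core. Hspa5, Hsp90b1 and Calr were picked by name, and the other ER lumen genes were not looked up one by one. Their matches and the lack of any in the 9 windows are therefore no comparison of gene groups. Calr did not pass (log2 fold change -0.15, adjusted p = 0.598, edgeR quasi-likelihood test), and its groups overlapped. Whether an ERSE goes with a lower level was not tested. The matches in Hspa5, Hsp90b1 and Calr follow as they read on the strand of the gene. The whole window of Hspa5, chr2:34771840-34772139 on the plus strand, is printed too, with its exact ERSE match in capitals. Calr and one of the matches of Hsp90b1 carry the element on the opposite strand.
Hspa5 ERSE: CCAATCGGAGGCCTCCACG
Hsp90b1 ERSE, gene strand: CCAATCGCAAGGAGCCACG
Hsp90b1 ERSE, opposite strand: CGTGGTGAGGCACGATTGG
Calr ERSE, opposite strand: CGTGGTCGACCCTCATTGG
Hspa5 window: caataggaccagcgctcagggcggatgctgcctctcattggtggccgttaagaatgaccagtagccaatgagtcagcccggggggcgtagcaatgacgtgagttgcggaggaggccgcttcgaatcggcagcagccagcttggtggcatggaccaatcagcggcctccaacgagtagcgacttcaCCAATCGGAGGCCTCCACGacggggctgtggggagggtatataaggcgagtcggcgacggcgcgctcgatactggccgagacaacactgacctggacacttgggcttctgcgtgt

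The windows of the sensors are shown because Stim1 and Stim2 had the smallest p of the 10 genes. Stim1 lies on the plus strand at chr7:102267569-102267868 and Stim2 on the plus strand at chr5:53998273-53998572. Capitals mark CCACG, the second part of the ERSE, on either strand, which 32.8% of all windows hold and which on its own is no ERSE. Of the 9 windows 5 held it. Stim2 had 5 such matches, Itpr2 had 4, Orai1 had 3, Itpr3 had 1 and 1 of the 2 Atp2c1 windows had 2, while Stim1, Atp2a3 and Ryr2 had none, so genes with positive and with negative fold changes stood on both sides. A match describes these letters only, and the lack of one in these windows says nothing of sites elsewhere.
Stim1 window: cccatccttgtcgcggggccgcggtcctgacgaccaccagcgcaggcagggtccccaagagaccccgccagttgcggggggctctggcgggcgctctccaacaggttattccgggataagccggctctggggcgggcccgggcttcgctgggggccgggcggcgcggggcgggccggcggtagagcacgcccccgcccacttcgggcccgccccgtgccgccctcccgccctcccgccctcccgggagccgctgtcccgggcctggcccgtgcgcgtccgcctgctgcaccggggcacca
Stim2 window: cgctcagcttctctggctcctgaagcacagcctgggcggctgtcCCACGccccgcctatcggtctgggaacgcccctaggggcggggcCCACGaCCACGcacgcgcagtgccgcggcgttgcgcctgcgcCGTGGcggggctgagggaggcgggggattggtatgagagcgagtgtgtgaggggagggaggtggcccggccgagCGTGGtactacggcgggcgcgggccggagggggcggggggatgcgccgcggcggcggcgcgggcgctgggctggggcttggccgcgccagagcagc

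Opposite-strand neighbours bear on 4 more of the 10 genes. Exons of Atp2a2 overlap those of Gm43361 over 83 bases, which had 7.10 CPM in PTHrP cells and 13.4 CPM in DsRed cells, a small fraction of Atp2a2. Exons of Itpr1 overlap those of Gm44101 and Gm44040, those of Itpr3 overlap Itpr3os, and those of Orai1 overlap Gm2479, each with at most 14 counts in a library.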

How the data were processed

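The authors deposited raw counts per gene and library in 1 table of 55774 rows. Per the submitters' processing notes, reads were handled with bcl2fastq, STAR and Subread featureCounts 2.0.3 on GRCm38. Not given in the sources used here are the annotation, the strand setting and the handling of reads with several matches. Repeats of 168 Ensembl identifiers (287 rows) with identical counts were dropped, leaving 55487 genes. Groups and replicate numbers came from the titles. Nothing there says that replicates were separate cultures, so the spread behind the p-values may be technical. All pairs of libraries differed beyond sampling noise.

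Genes were filtered by filterByExpr, scaled by TMM and tested with the edgeR 4.0.16 quasi-likelihood test (R 4.3.3, robust, group term alone, two-sided) with Benjamini-Hochberg adjustment. SE is the log2 fold change over the square root of F, and 95% intervals use its t distribution. Exon lengths and positions are from GENCODE M21 (GRCm38). Alternatives were other scalings and filters, DESeq2 1.42.0, limma-voom 3.58.1, the replicate number as a block, a correction for exon length (a lowess trend per library), and each library left out. The steps were tested on simulated counts. Named genes are the 10 genes, list genes that passed, up to 3 per list with the smallest p, and paralogs. A gene that this rule names is not reported here. Overlapping neighbours, Calr, Gcg, Pln, Sln and Strit1 were named after their values were seen. The genes and lists were chosen with earlier results of these data known.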

Additional observations from a re-analysis of the deposited data

How the results depend on the processing

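None of the 10 calcium genes passed in the main test or in any of the 16 alternatives. In the fits that tested all 10, 5 or 6 of them had a negative fold change. It was 4 with the filter of at least 1 CPM in 3 libraries, which did not test Itpr2 and Ryr2. The number of genes called over the whole table was 9, and it became 14 with library sizes alone, 220 with no filter on low counts, 136 with DESeq2 and 14 with the length correction. It ran from 2 to 213 when a library was left out, 213 without PTHrP replicate 2. The causes were not tested. Leaving out 1 library moved the log2 fold change of Atp2a2 between -0.0115 and 0.0419, of Itpr1 between -0.268 and 0.0826, of Itpr2 between -0.209 and 0.631 and of Itpr3 between -0.0747 and 0.173, the 4 genes that changed sign. Ryr2 moved from -0.24 to -0.06 with the length correction. At least 1 CPM in 3 libraries left out Itpr2 and Ryr2.

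Deviations from the group mean correlated at 0.0235, -0.106 and 0.0246 between libraries of the same replicate number. The highest values joined different numbers, PTHrP replicate 2 with DsRed replicate 3 (0.131) and PTHrP replicate 1 with DsRed replicate 2 (0.122). With means over 3 libraries, this check cannot tell whether libraries of the same number shared a culture or day. With the replicate block 7 genes passed and none of the 10, and with the block and length correction together 6 and none. With the longest transcript as the length, Atp2a2 made up 70.0% and Atp2a3 30.0% of the ER pumps, Itpr1 90.2% and Itpr3 8.84% of the IP3 receptors, and Stim1 46.1% and Stim2 53.9% of the sensors, as means over the 6 libraries, against 71.4%, 28.6%, 83.6%, 15.1%, 27.3% and 72.7% with all exons. Itpr2 and Ryr2 had the lowest depth, and how much of their wide intervals came from depth and how much from spread between replicates was not tested.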

Other observations

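Calcium handling outside the ER was covered by 2 further lists. Of the 6 tested genes of calcium extrusion at the plasma membrane none passed, and 4 had negative fold changes, with a median of -0.13. The plasma membrane pump Atp2b1 had 337 ± 22.6 CPM in PTHrP cells and 372 ± 8.91 CPM in DsRed cells (SD, n = 3 each). The groups did not overlap, which held with PTHrP lower for 7.88% of all genes tested. Atp2b1 had a difference of -0.14 on the log2 scale (SE 0.06, adjusted p = 0.525, edgeR quasi-likelihood test). Atp2b2, its relative, had 51.5 ± 2.33 CPM in PTHrP cells and 56.3 ± 1.56 CPM in DsRed cells, a difference of -0.13 (adjusted p = 0.612). The sodium-calcium exchanger gene Slc8a3 was under 1 CPM in every library, with a log2 fold change of 0.74 (adjusted p = 0.709).

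Of the 11 genes of mitochondrial calcium uptake and release none passed, and 7 had positive fold changes, with a median of 0.05. Vdac1, a channel of the outer membrane, had 486 ± 63.2 CPM in PTHrP cells and 446 ± 29.5 CPM in DsRed cells (log2 fold change 0.13, adjusted p = 0.727). Mcu, the pore of the uniporter, had 38.3 ± 1.49 CPM in PTHrP cells and 40.9 ± 1.84 CPM in DsRed cells (-0.09, adjusted p = 0.752).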
